A study of Mus musculus with 4 samples.

Results

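The 4231 regions described here are intergenic PPARγ-bound regions that lie at a middle distance from genes in mouse alveolar macrophages (AMs). They were taken from 20233 consensus regions, each made by merging overlapping peaks of both PPARγ libraries. A region was kept when its centre lay outside every curated RefSeq transcript and more than 3 kb, but at most 50 kb, from the nearest transcription start site (TSS). These regions, called mid-range regions below, made up 20.9% of the consensus (95% Wilson interval 20.4 to 21.5%). The AMs came from wild-type C57BL/6J mice, 9-wk-old by the study's methods, and were sorted after bronchoalveolar lavage. The assay was HT-ChIPmentation, a form of ChIP-seq in which a transposase adds the sequencing adapters to chromatin on the antibody beads. The 2 ChIP libraries, library 1 and library 2, form 1 group of wild-type cells. There is therefore no contrast between conditions, and the comparisons are between classes of regions within the same libraries. The labels do not say whether the libraries came from separate animals, or how many mice were pooled.

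PPARγ, a nuclear receptor activated by fatty acids, occupies DNA paired with a retinoid X receptor (RXR). The pair recognizes direct repeats of a short hexamer, AGGTCA, with a single base between the copies, a motif known as DR1. In AMs, the macrophages that clear surfactant from the airspace, PPARγ is induced by GM-CSF and TGFβ and is needed for lipid handling and for the AM phenotype. Intergenic binding away from promoters is typical of enhancers, where lineage factors such as the ETS factor PU.1, C/EBP, RUNX and AP-1 bind alongside nuclear receptors. Whether a given region regulates its nearest gene cannot be read from peak lists.

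Sequence around the summit is shown for 10 mid-range regions, chosen as the highest-ranked carriers of DR1, PU.1, C/EBP and AP-1 within 50 bp of the summit and as the highest-ranked regions of 3 lipid genes. Each stretch runs 50 bp to either side of the library 1 summit on the plus strand of GRCm38.p6 (mm10), as held by RefSeq. Capitals mark matches, on either strand, to DR1 with up to 1 mismatch, PU.1, C/EBP, AP-1 and RUNX. The first 4 are the best-ranked regions with a DR1 match within 50 bp of the summit. In the Prss30 region a DR1 match runs directly into a PU.1 match and another DR1 match lies to the right, and in the Zfp36l2 region an AP-1 match accompanies DR1.
Slc16a11 region, chr11:70198479-70198579: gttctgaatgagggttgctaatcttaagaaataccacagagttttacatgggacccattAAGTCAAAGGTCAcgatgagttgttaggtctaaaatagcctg
Zfp36l2 region, chr17:84107679-84107779: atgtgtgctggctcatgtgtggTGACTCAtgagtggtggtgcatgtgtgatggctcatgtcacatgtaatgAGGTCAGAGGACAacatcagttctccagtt
Prss30 region, chr17:23983031-23983131: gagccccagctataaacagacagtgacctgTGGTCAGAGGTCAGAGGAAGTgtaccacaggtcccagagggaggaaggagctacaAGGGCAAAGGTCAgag
Oplah region, chr15:76313385-76313485: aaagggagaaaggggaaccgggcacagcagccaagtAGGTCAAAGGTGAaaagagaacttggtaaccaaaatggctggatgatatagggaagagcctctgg
The Ybx2 and Eed regions are the best-ranked with PU.1 and no DR1 in this window, and the Ybx2 region holds a pair of PU.1 matches.
Ybx2 region, chr11:69931092-69931192: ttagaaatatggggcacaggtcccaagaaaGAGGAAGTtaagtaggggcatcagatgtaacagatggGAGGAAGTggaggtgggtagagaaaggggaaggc
Eed region, chr7:90019738-90019838: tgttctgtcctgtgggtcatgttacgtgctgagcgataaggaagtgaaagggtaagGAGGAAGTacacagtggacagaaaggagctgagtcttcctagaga
The Plin2 and Noct regions are the best-ranked with C/EBP and with AP-1 but no DR1 in this window, and the Plin2 region is also the strongest of that gene.
Plin2 region, chr4:86690355-86690455: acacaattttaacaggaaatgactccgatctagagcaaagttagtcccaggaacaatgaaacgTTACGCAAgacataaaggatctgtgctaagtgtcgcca
Noct region, chr3:51209884-51209984: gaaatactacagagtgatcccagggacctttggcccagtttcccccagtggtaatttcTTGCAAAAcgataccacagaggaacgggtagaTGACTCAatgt
The last pair are the best-ranked regions of the cholesterol exporters Abcg1 and Abca1, which hold no DR1 match in this window.
Abcg1 region, chr17:31040620-31040720: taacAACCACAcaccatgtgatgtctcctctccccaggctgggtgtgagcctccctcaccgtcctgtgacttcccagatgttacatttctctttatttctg
Abca1 region, chr4:53227951-53228051: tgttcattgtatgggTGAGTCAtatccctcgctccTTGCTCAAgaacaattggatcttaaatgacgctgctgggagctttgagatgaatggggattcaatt
DR1 with up to 1 mismatch was rare, within 100 bp of 46 of the 4231 summits (1.09%). Its share was similar in the weakest and the strongest of 4 groups of regions by rank, at 1.04% and 1.23%. Among mid-range regions the Slc16a11 region ranked 138, with a fold enrichment over input of 14.8 in library 1 and 12.3 in library 2. The Oplah region ranked 599, with a fold enrichment of 10.1 in library 1 and 9.26 in library 2.

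Library 1 held 83787 peaks and library 2 held 28535, and the lists carry no read counts, so no value can be weighed by depth. Centres of 17182 library 1 peaks (20.5%) and 6063 library 2 peaks (21.2%) fell in the same distance class. Markers of AMs and of other cells were looked up among the genes nearest to any consensus region. This describes where PPARγ was bound and cannot establish the identity of the cells, since binding near a gene is not its expression. All 12 AM markers examined, among them Siglecf, Marco, Car4 and Pparg, had a consensus region, and 9 of them had a mid-range region. Of all protein-coding genes, 31.6% had a consensus region and 8.92% a mid-range region. None of the 3 T cell markers and none of the 4 alveolar type II markers had a consensus region. Regions were found for 2 of 4 neutrophil markers, 1 of 3 eosinophil markers, 1 of 3 B cell markers and 1 of 4 interstitial macrophage markers. The intergenic label depends on the annotation. When predicted RefSeq transcripts were included, 3133 of the 4231 regions (74.0%) kept their class, 459 fell in introns of predicted transcripts more than 3 kb from a TSS and 245 came within 1 kb of a predicted TSS.

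The mid-range regions had a median width of 655 bp, with the middle 50% between 410 and 1099 bp. Fold enrichment ran from 1.85 to 42.1 in library 1, with a median of 6.81, and from 2.45 to 22.1 in library 2, with a median of 5.35. Over the 4231 regions the log2 folds of both libraries had a Pearson r of 0.61 and the folds a Spearman rho of 0.56, given as a description since the regions share 2 libraries. The summits of the libraries lay a median of 92 bp apart, and 53.1% of regions had summits within 100 bp of each other. The bulk of the regions was thus of moderate enrichment, with a small tail that was strong in both libraries.

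**Figure D1:**
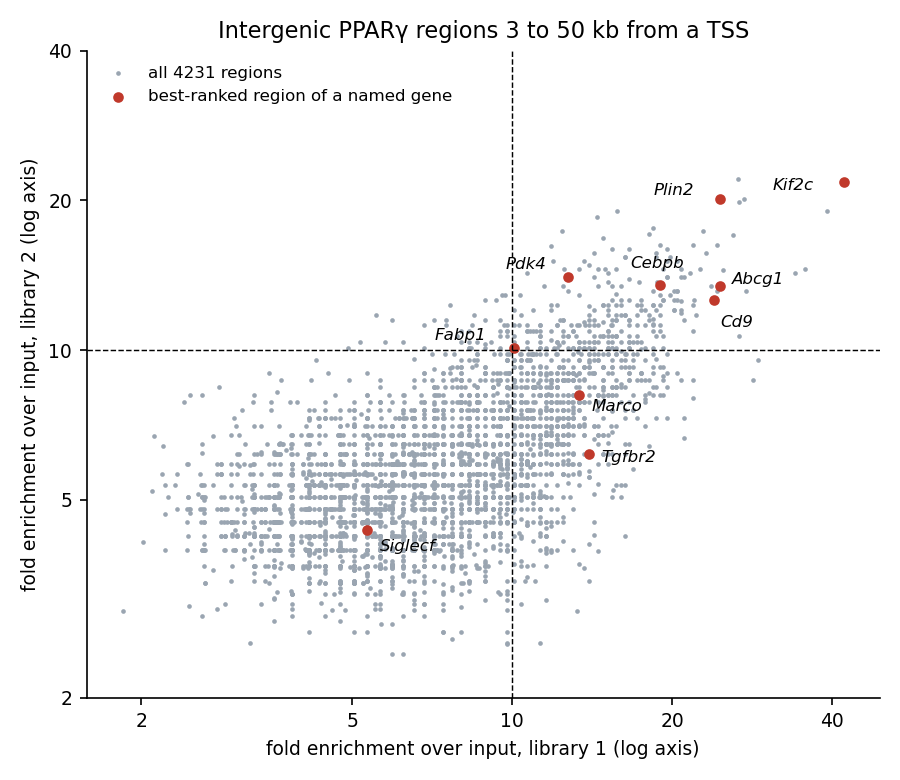
Fold enrichment over input of each of the 4231 mid-range regions in library 1 (x axis) and library 2 (y axis), both on log axes; each grey point is a region and red points are the best-ranked regions of 10 named genes. Dashed lines mark a fold of 10, and 253 regions lie at or above it in both libraries, among them those of Plin2, Abcg1, Cebpb, Cd9 and Pdk4, whereas the Siglecf region lies at 5.33 and 4.35.

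Among the strongest regions was one upstream of a lipid droplet gene. Regions were ranked by the lower of their 2 fold percentiles among all consensus regions. First came a region at chr4:117189211-117191257, 7.61 kb upstream of Kif2c, a mitotic kinesin, with 42.1-fold enrichment in library 1 and 21.8-fold in library 2. It lay within 1 kb of Gm25099, a small nuclear RNA (snRNA) gene. Within 1 kb of snRNA genes lay also the top regions of Sirt4, Parp16 and Rdm1, so that 4 of the 15 best-ranked regions, against 29 of all 4231, adjoined such a gene. The part of snRNA loci in these folds was not tested. The Plin2 region ranked 6th, at chr4:86689274-86691880, 20.5 kb upstream of the gene for perilipin 2, which coats lipid droplets, with 24.6-fold enrichment in library 1 and 20.1-fold in library 2. Lpin1, which encodes a phosphatidate phosphatase, had a region at chr12:16618663-16621604, 9.17 kb upstream, with folds of 22.8 and 17.4 in libraries 1 and 2. Igf1, a growth factor gene, had one at chr10:87829746-87832741, 27.02 kb upstream, with folds of 23.1 and 15.7. The remaining 8 of the 15 lay nearest to the coding genes Bcar3, Ccdc97, Trim25, H3f3b, Cd164, Dnttip2, Noct and Pde4b. Folds of all 15 lay between 20.4 and 42.1 in library 1 and between 14.6 and 22.1 in library 2.

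Strong binding was somewhat more frequent in mid-range regions than in other distal classes. A fold of at least 10 in both libraries was found in 253 of 4231 mid-range regions, or 5.98% (5.30 to 6.73%), where all consensus regions gave 4.83%. It was found in 294 of 6614 distal intronic regions, or 4.45% (3.97 to 4.97%), which lie in introns more than 3 kb from a TSS. The odds ratio of mid-range over distal intronic regions was 1.37 (1.15 to 1.62, adjusted exact p = 0.000664, two-sided Fisher's exact test, Benjamini-Hochberg over 3 contrasts). Over the 1249 intergenic regions beyond 50 kb, of which 4.32% reached this fold, the odds ratio was 1.41 (1.04 to 1.90, adjusted exact p = 0.025). That call was lost when summits had to lie within 100 bp of each other (adjusted exact p = 0.081) and when the fold minimum was 5 (odds ratio 1.003). Over the 5121 promoter regions, within 1 kb of a TSS, of which 4.30% reached it, the odds ratio was 1.42 (1.18 to 1.71, adjusted exact p = 0.000664). The promoter contrast had no stable direction, since the odds ratio was 0.814 at a fold of at least 5 and 0.777 for library 1 peaks alone. At a fold of at least 15 none of the contrasts passed the test. Without the regions within 1 kb of an snRNA gene the odds ratios were 1.36, 1.39 and 1.49 over distal intronic regions, regions beyond 50 kb and promoters, and all passed. Regions are not replicates and cluster along the genome, so these intervals and p-values cover counting error only.

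Peaks in this distance range recurred between the libraries at about the share of all peaks, and the share was lower beyond 50 kb. Of 6063 library 2 peaks in the range, 4981 (82.2%, 81.2 to 83.1%) overlapped a library 1 peak, where all library 2 peaks gave 82.9%. The share was 80.6% of 9594 distal intronic peaks and 74.7% of 1934 peaks beyond 50 kb. The odds ratio was 1.11 over distal intronic peaks (1.02 to 1.21, adjusted exact p = 0.0125, Fisher's exact test) and 1.56 over peaks beyond 50 kb (1.38 to 1.76, adjusted exact p = 3.56e-12). The first of these calls was lost when summits had to lie within 100 bp (adjusted exact p = 0.34) or predicted transcripts were included (adjusted exact p = 0.13). Recurrence followed strength within the range. In the strongest of 4 groups of library 2 peaks by fold it was 97.97%, and in the weakest 68.4%. In the other direction, 27.3% of the 17182 library 1 peaks in the range overlapped a library 2 peak.

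Intergenic binding thinned steadily with distance from a TSS. Mid-range regions numbered 7.84 per Mb of eligible intergenic sequence (exact Poisson interval 7.61 to 8.08), against 1.36 per Mb beyond 50 kb, 7.40 per Mb of distal intron and 95.2 per Mb within 1 kb of a TSS. Density was 12.8 per Mb at 3 to 5 kb (11.8 to 14.0), 10.1 at 5 to 10 kb (9.43 to 10.7), 8.58 at 10 to 20 kb (8.10 to 9.07), 6.81 at 20 to 30 kb (6.32 to 7.32), 5.86 at 30 to 40 kb (5.35 to 6.39) and 4.59 at 40 to 50 kb (4.10 to 5.11). From 3 to 10 kb it was 2.07 times that from 30 to 50 kb, or 3.21 times when predicted transcripts were included. The median distance was 14.7 kb, with the middle 50% of regions between 7.73 and 26.4 kb. Strength did not thin in the same way. A fold of at least 10 in both libraries was reached by 5.60% of regions at 3 to 5 kb and by 6.19% at 40 to 50 kb, and the intermediate ranges lay between 5.60 and 6.79%.

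**Figure D2:**
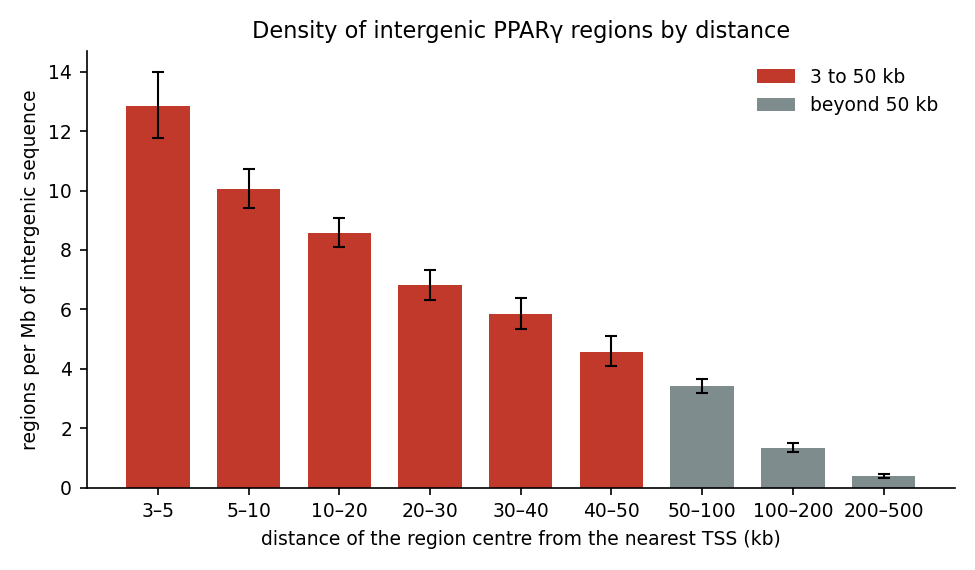
Intergenic PPARγ regions per Mb of intergenic sequence (y axis) by distance of the region centre from the nearest TSS in kb (x axis), with mid-range regions in red, regions beyond 50 kb in grey and exact 95% Poisson intervals as error bars. Density is highest at 3 to 5 kb, at 12.8 per Mb, and is 4.59 per Mb at 40 to 50 kb and 0.398 per Mb at 200 to 500 kb.

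Of the 4231 regions, 2991 lay upstream of the nearest TSS, or 70.7% (69.3 to 72.0%). Upstream positions made up 67.5% of the eligible bases, which by the rule exclude sequence inside transcripts. Density was 8.21 per Mb upstream (7.92 to 8.51) and 7.08 per Mb downstream (6.69 to 7.48). The order differed along the range, with 13.3 per Mb upstream and 10.7 downstream at 3 to 5 kb, but 4.04 upstream and 5.38 downstream at 40 to 50 kb. Chromosome X held 37 mid-range regions, or 0.959 per Mb (0.675 to 1.32), where the autosomes gave 8.37 per Mb. Distal introns gave 0.833 per Mb on X and 7.69 on the autosomes, so the low density on X was not confined to intergenic sequence. Among the autosomes, density ran from 5.80 per Mb on chromosome 18 to 16.1 on chromosome 19.

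The regions next to both limits of the class were as follows. Just inside the near limit was a region of Ncf1, a subunit of the phagocyte NADPH oxidase, at 3005 bp with folds of 17.2 and 10.4 in libraries 1 and 2. Just outside it was a region of Actb at 2999 bp, with folds of 12.1 and 9.54. At the far limit, a region of Atp10a lay at 49968 bp inside the class, with folds of 10.6 and 3.43, and a region of Glrx lay at 50020 bp outside it, with folds of 15.1 and 9.54.

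Motifs of macrophage lineage factors were enriched at the summits, and the call of DR1 depended on the flank and on the definition. Letter patterns of 24 motifs were looked for, in either orientation, in the 100 bp on each side of the library 1 summit. An equally long flank centred 1 kb to the left of the summit served for comparison. Flanks were not screened for binding, so some may lie inside the same or a neighbouring region. At summits 11 of the 24 (45.8%) were more frequent than in flanks, and none was less frequent (exact McNemar test, Benjamini-Hochberg over 24 motifs). PU.1 (GAGGAAGT) had the largest ratio of the motifs called. It was present at 8.44% of summits (7.64 to 9.31%) and in 1.70% of flanks (1.35 to 2.14%), a ratio of 4.96 (3.86 to 6.37, adjusted exact p = 4.07e-46), and the ratio was 2.77 and 3.34 with the peaks of a single library. C/EBP (TTGCNNAA) was present at 16.7% of summits and in 7.94% of flanks, a ratio of 2.10 (1.86 to 2.37, adjusted exact p = 3.99e-34). AP-1 (TGANTCA) was present at 11.6% and 6.38%, a ratio of 1.82 (1.58 to 2.10, adjusted exact p = 2.79e-16). RUNX (TGTGGTT) was present at 9.52% and 6.36%, a ratio of 1.498 (1.29 to 1.74, adjusted exact p = 4.39e-07). At least 1 of these 4 motifs was found at 39.3% of summits (37.8 to 40.8%) and in 20.6% of flanks (19.4 to 21.9%).

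The nuclear receptor hexamer AGGTCA, labelled NR half-site in the plots, was present at 18.1% of summits and in 12.9% of flanks, a ratio of 1.40 (1.27 to 1.56, adjusted exact p = 3.39e-10). NBRE (AAAGGTCA), the site that NR4A receptors bind as monomers, was present at 2.84% and 1.18%, a ratio of 2.40 (1.73 to 3.34, adjusted exact p = 3.85e-07). These patterns overlap, because the hexamer is contained in NBRE and in DR1, DR4 and DR5, and a DR1 with A between its copies contains NBRE. DR1 with up to 1 mismatch was found at 46 summits (1.09%) and in 32 flanks (0.756%), and the ratio of 1.44 did not pass the test (0.921 to 2.24, adjusted exact p = 0.217). This ratio was close to the 1.40 of the hexamer and the 1.498 of RUNX, which had more matches and passed. The DR1 call depended on the flank and on the definition. The ratio was 2.09 over flanks to the right (adjusted exact p = 0.011), 1.97 at library 2 peaks alone (adjusted exact p = 0.004) and 1.64 with up to 2 mismatches (adjusted exact p = 2.7e-06). An unbroken DR1 was found at only 2 summits and in 1 flank. Letter patterns miss degenerate sites, so these shares are not shares of bound receptor. DR4 and DR5, spaced repeats used by other RXR partners, were at 11 and 14 summits and did not pass.

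E-box (TCACGTG), with 2.31 times the flank share, CTCF (2.54), the composite of ETS and IRF cores, GGAA and GAAA spaced by 2 bases (1.963), NF-kB (GGGANTTCC, 1.88) and MAF/NRF2 (TGACNNNGC, 1.41) were the remaining motifs called. The NF-kB ratio depended on the flank side, with 1.16% of summits, 0.615% of left flanks and 0.922% of right flanks. So did that of the ETS and IRF composite, with 3.81% of summits, 1.94% of left flanks and 2.55% of right flanks. Over flanks to the right 12 motifs were called. SMAD (GTCTAGAC), the motif of TGFβ signaling, was at 14 summits and in 9 left flanks, and did not pass. It was at 0.331% of summits, 0.213% of left flanks and 0.0236% of right flanks. Its lack of a call is therefore stated for left flanks only. RBPJ (GTGGGAA), the motif of Notch signaling, was at 4.30% of summits and 3.92% of left flanks, and did not pass either. The motif of GATA factors, AGATAAG, which act in other blood lineages, was at 2.60% and 2.65%. Also without a call were KLF (GGGTGTGGC), STAT (TTCCNGGAA), EGR (GCGTGGGCG), OCT (ATGCAAAT), HNF1 (GTTAATNAT), SP and a pair of GAAA cores spaced by 2 bases, the ISRE pair. Flanks were more repetitive than summits. Windows with at least 50% soft-masked bases made up 10.9% of summits and 23.7% of flanks, and the GC content was 44.4% and 45.4%. With both windows restricted to those below 50%, PU.1 kept a ratio of 5.06 and 10 motifs were called.

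**Figure D3:**
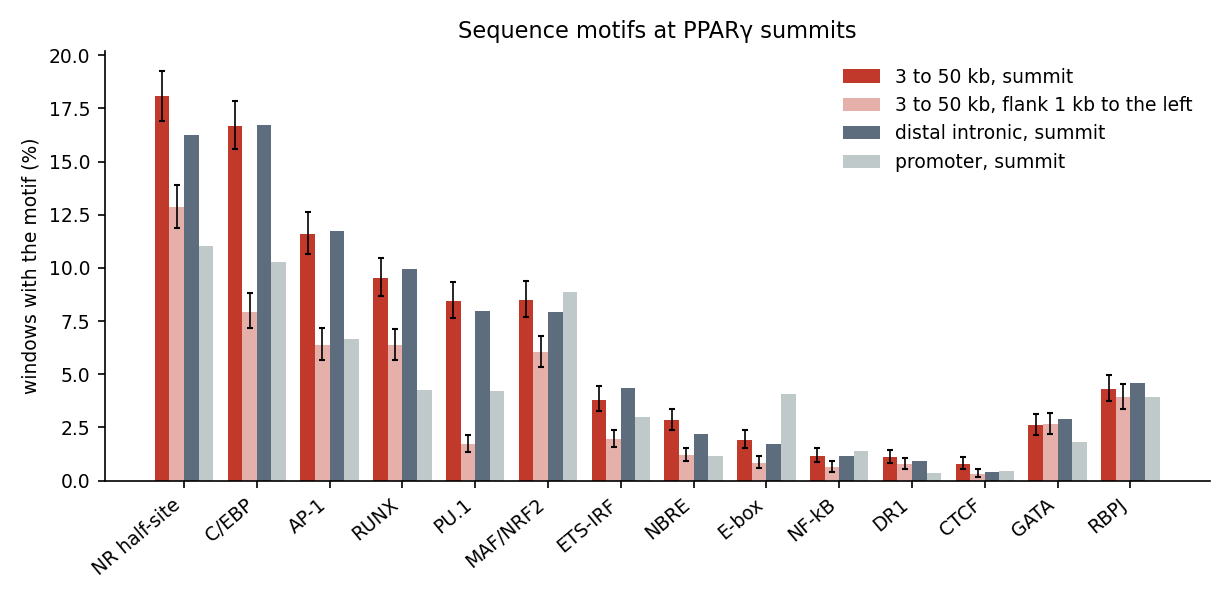
Share of windows, 100 bp on each side of their centre, that contain each motif (y axis, percent) for 14 of the 24 motifs (x axis), at mid-range summits and in their left flanks, both with 95% Wilson intervals, and at summits of distal intronic and promoter regions. PU.1 stands at 8.44% of mid-range summits and in 1.70% of flanks, and the distal intronic shares lie close to the mid-range ones.

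**Figure D4:**
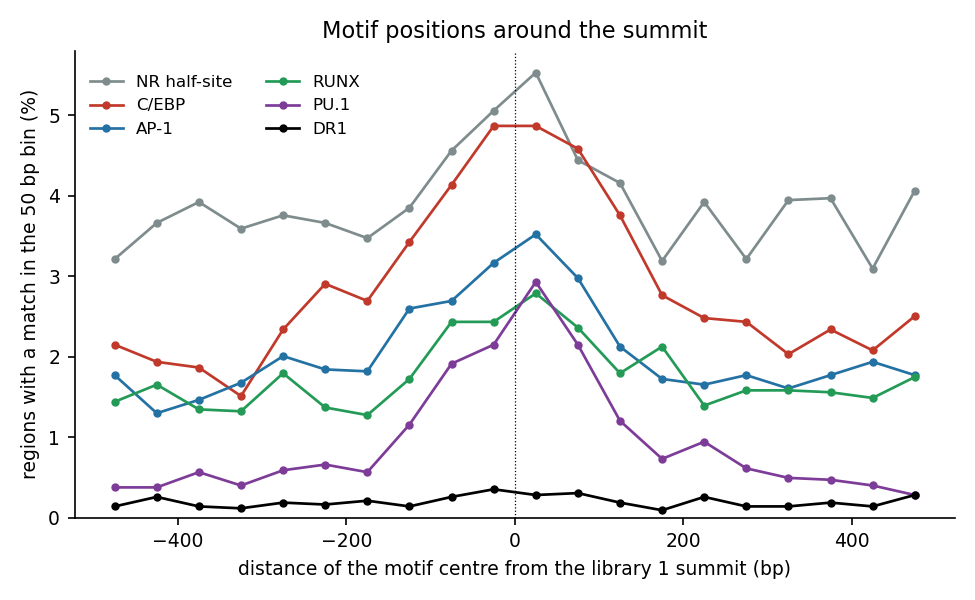
Share of the 4231 mid-range regions with a motif centre in each 50 bp bin (y axis, percent) by distance from the library 1 summit in bp (x axis), 1 line for each of 6 motifs. PU.1, C/EBP, AP-1, RUNX and the nuclear receptor hexamer are highest within 50 bp of the summit, where PU.1 reaches 2.93%, and DR1 stays below 0.36% in every bin.

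The motif make-up was close to that of distal introns and differed from that of promoters. None of the 24 motifs (0%) differed between mid-range and distal intronic summits in Fisher's exact test with Benjamini-Hochberg adjustment, and 5 had an unadjusted p under 0.05. For PU.1 the odds ratio of mid-range over intronic summits was 1.06 (0.925 to 1.22) and for C/EBP 0.996 (0.898 to 1.10). With the peaks of library 1 alone 4 motifs differed from distal introns and 10 from regions beyond 50 kb. Against regions beyond 50 kb 1 motif (4.17%) differed. C/EBP was lower at mid-range summits, at 16.7%, against 21.8% beyond 50 kb (odds ratio 0.719, 0.615 to 0.842, adjusted exact p = 0.00127). That call was lost with predicted transcripts included, with library 2 peaks alone and with summits within 100 bp. Against promoters 13 motifs (54.2%) differed, 11 of them higher at mid-range summits. PU.1 was at 8.44% of mid-range summits, against 4.20% of promoter summits (odds ratio 2.10, adjusted exact p = 1.02e-16), and DR1 at 1.09%, against 0.351% (odds ratio 3.12, adjusted exact p = 5.70e-05). In the other direction, SP (GGGGCGGGG), a GC-rich promoter motif, was at 0.804% of mid-range summits, against 6.72% of promoter summits (odds ratio 0.112, adjusted exact p = 4.86e-54), and E-box at 1.91%, against 4.08% (odds ratio 0.459, adjusted exact p = 3.41e-09). The GC content was 44.4% in mid-range windows, against 51.8% in promoter windows.

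PU.1, C/EBP, RUNX and the nuclear receptor hexamer were more frequent at stronger regions. With the regions in 4 groups of about equal size by rank, from weakest to strongest, PU.1 was at 5.67, 7.09, 10.2 and 10.8% of summits, and the Wilson intervals of the weakest (4.43 to 7.23%) and the strongest group (9.05 to 12.8%) did not overlap. C/EBP was at 12.004, 16.2, 16.0 and 22.6%, and the nuclear receptor hexamer at 15.6, 16.4, 18.9 and 21.4%. DR1 was at 1.04, 1.04, 1.04 and 1.23%. The median width of the groups was 393.5, 511, 748 and 1414 bp, and the part of width in these shares was not tested. Over distance from the TSS the intervals of PU.1 overlapped, with 115 of 1437 summits at 3 to 10 kb (6.71 to 9.52%), 109 of 1235 at 10 to 20 kb (7.37 to 10.5%) and 133 of 1559 at 20 to 50 kb (7.24 to 10.0217%).

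The regions were unevenly spread over genes. For each region the closest TSS of a protein-coding gene was taken, and this was also the closest TSS of any kind for 79.3% of them. In all, 1865 of 20919 protein-coding genes (8.92%) had a mid-range region, and 987 of these had 1 each. With the peaks of library 1 alone the number of genes was 4513, and with those of library 2 alone 2109. The 206 genes with at least 5 held 1483 regions, or 35.1% of all. Of the 1865 genes, 46.5% (44.3 to 48.8%) also had a promoter region, against 17.1% (16.6 to 17.6%) of the other genes. The most regions fell to Cebpb, which encodes C/EBPβ, with 28, and to Tomm20, which encodes a mitochondrial import receptor, with 27. They were followed by Cd9, a tetraspanin gene, with 20, Zfp36l2, which encodes an mRNA decay factor, with 17, Fos, an AP-1 subunit gene, with 16, Plet1 with 14, and Adrb1 and Klhl25 with 13 each.

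Of the 4231 regions, 2893 (68.4%) lay within 10 kb of another, centre to centre, and 152 runs of at least 5 such regions held 1064 of them. No such share is given here for other classes, so it is not read as particular to mid-range regions. The longest run was 27 regions over 77.3 kb downstream of Cebpb, chr2:167696584-167773902, with folds of 2.20 to 19.0 in library 1, median 7.70, and of 3.56 to 13.9 in library 2, median 6.72. All lay closer to A530013C23Rik or Gm14321, neither of them protein-coding, than to Cebpb, whose TSS was 8.73 to 84.1 kb away. The next was 16 regions over 54.4 kb, chr8:126855537-126909953, with medians of 7.55 and 4.75. Tomm20 was their nearest protein-coding gene, with its TSS 36.7 to 90.1 kb away, and for some of them the TSS of A630001O12Rik was nearer. Runs of 13 had as nearest protein-coding genes Lgals3 and Mapk1ip1l (chr14:47334744-47365685), Zfp36l2 (chr17:84094917-84126554) and Plet1 (chr9:50452500-50487873). The Zfp36l2 run lay 61.9 to 92.6 kb from that gene's TSS, and the TSSs of 4933433H22Rik or Gm19696 were nearer.

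Genes were grouped in 15 lists, and a list is read beside the 8.92% of all protein-coding genes. The amount of eligible intergenic sequence differs between genes, with a median of 33.3 kb for genes that had a mid-range region and 13.0 kb for those without, so regions per Mb of that sequence are given as well, beside 7.81 per Mb over all genes. The genes of the lists were chosen with earlier results of these data known, so the lists are described and not tested. Together the lists held 430 distinct genes, of which 153 had a mid-range region, or 236 with the peaks of library 1 alone.

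**Figure D5:**
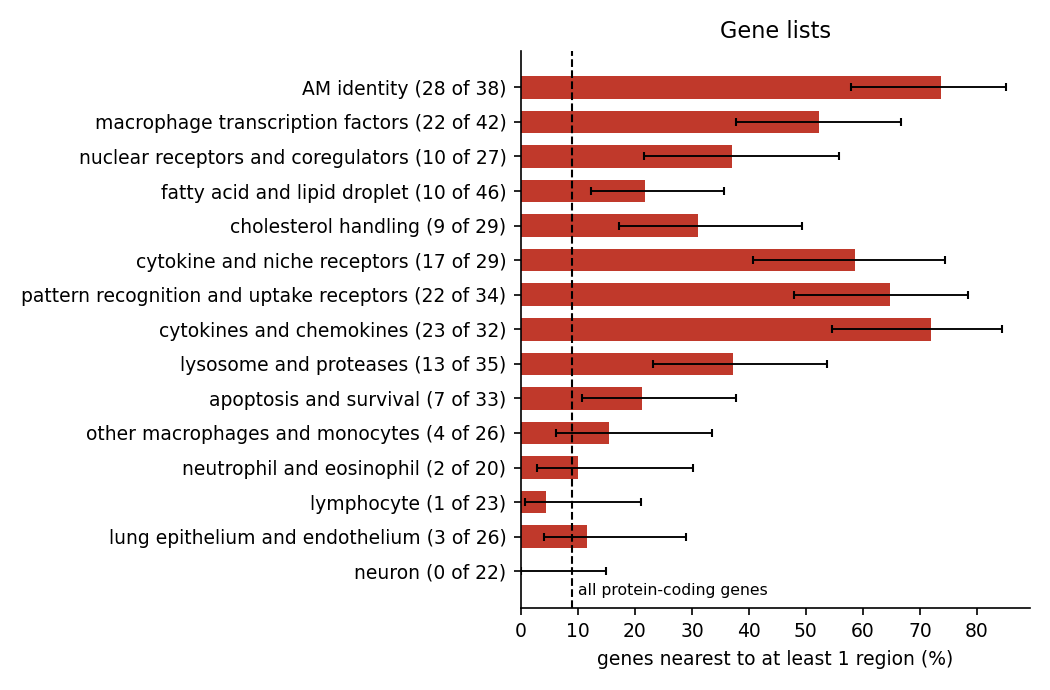
Share of the genes of each list that are nearest to at least 1 mid-range region (x axis, percent), with 95% Wilson intervals; the dashed line is the 8.92% of all 20919 protein-coding genes. AM identity is highest at 73.7%, and the lymphocyte list at 4.35% and the neuron list at 0% lie below the line.

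AM identity genes had the highest share. Of 38 genes, 28 (73.7%, 58.0 to 85.0%) had at least 1 of the regions, which numbered 108, or 86.6 per Mb. The strongest were nearest to Fpr1, a formyl peptide receptor gene (chr17:17870166-17874649, folds of 20.7 and 14.0 in libraries 1 and 2), Cd69 (19.0 and 13.4) and Cd9 (chr6:125443821-125446638, 49.5 kb downstream, 24.0 and 12.6). The Cd69 TSS was 42.8 kb from its region, and the TSS of 2310001H17Rik was nearer, at 5.52 kb. The 20 regions of Cd9 ran from 2.46 to 24.0 in library 1 and from 3.06 to 12.6 in library 2. Plet1 followed, with 15.1 and 11.8 for its best region. Marco, a scavenger receptor gene, had 7 regions 12.6 to 30.2 kb upstream, the best with folds of 13.3 and 8.15. Ctsk, a cathepsin gene, had 1 region with folds of 10.4 and 8.70. Siglecf and Car4 each had a single region, below the class median in both libraries. Siglecf had 1 region, 7.94 kb upstream, with folds of 5.33 and 4.35. Car4, a membrane carbonic anhydrase gene, had 1 with folds of 5.45 and 4.24. Itgax, Cidec, Ccl6 and Cdh1 had none, although each had 3 to 6 consensus regions elsewhere.

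Transcription factor genes of macrophages had regions for 22 of 42 (52.4%, 37.7 to 66.6%), at 43.0 per Mb. The best region of Cebpb reached folds of 19.0 and 13.5, that of Klf6 18.4 and 13.2, that of Fos 18.1 and 11.8 and that of Runx1 18.4 and 10.1. Bhlhe40 and Bhlhe41, repressors needed for AM self-renewal, had 4 regions each, the best with folds of 13.4 and 9.82 for Bhlhe40 and 10.1 and 7.87 for Bhlhe41. For each of the Bhlhe40 regions the TSS of 0610040F04Rik was slightly nearer than that of Bhlhe40. Spi1, which encodes PU.1, had none, with 8 of its 12 consensus regions in distal introns and 3 at the promoter. Cebpd, Elf4, Fli1 and Id2 also had none.

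Nuclear receptors and their coregulators had regions for 10 of 27 genes (37.0%, 21.5 to 55.8%), at 27.8 per Mb. Nrip1, a corepressor gene, led with 9 regions, the best at folds of 18.4 and 12.3 and 157.5 kb upstream, where Gm30726, which is not a protein-coding gene, was nearer. Nr4a1, an orphan receptor gene induced by many stimuli, had 8, the best at 10.4 and 7.59. Pparg itself had none in this class, since 9 of its 12 consensus regions were in distal introns and 2 at promoters. Rxra had none either, with 3 of 4 in distal introns.

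Fatty acid and lipid droplet genes had a lower share, 10 of 46 (21.7%, 12.3 to 35.6%), at 25.5 per Mb. Plin2 had 9 regions, from 3.36 to 24.6 in library 1 and from 3.55 to 20.1 in library 2, of which 7 lay 5.83 to 22.6 kb upstream. Pdk4, whose product restrains pyruvate oxidation, had 1 region 13.8 kb upstream (chr6:5509143-5511025) with folds of 12.7 and 14.0. Lpl, which encodes lipoprotein lipase, had 6 regions 27.4 to 38.9 kb downstream, the best with folds of 12.2 and 9.26. Fabp1, a fatty acid-binding protein gene, had 3 upstream, with folds of 10.1, 7.70 and 4.15 in library 1 and 10.1, 5.07 and 5.63 in library 2. Fabp4 had 2, 5.39 and 4.95 kb upstream, with folds of 5.63 and 8.59 in library 1 and 5.35 and 4.52 in library 2. The fatty acid transporter gene Cd36 had 19 consensus regions, 14 of them in distal introns, and none of this class. Angptl4 and Ucp3 had none either, and Adipoq, an adipocyte gene, had no consensus region.

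For cholesterol handling the share was 9 of 29 (31.0%, 17.3 to 49.2%), at 20.4 per Mb. Abcg1 had 5 regions, all 3.38 to 38.8 kb upstream. Those at chr17:31037231-31042283 and chr17:31019298-31025172 had folds of 24.6 and 16.3 in library 1 and 13.4 and 15.4 in library 2, and the other 3 lay between 2.88 and 5.04 in library 1 and between 3.68 and 5.35 in library 2. Abca1 had 2, 58.5 and 68.1 kb upstream, of modest strength, with folds of 7.70 and 6.52 in library 1 and 4.52 and 5.35 in library 2. The TSS of 4930522O17Rik was nearer, at 27.8 and 18.2 kb, which placed both regions in the class. Npc2, which encodes a lysosomal cholesterol carrier, had 3, the best with folds of 8.88 and 6.47. Apoe, Apoc1 and Cyp27a1 had none.

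Receptors for cytokines and niche signals had regions for 17 of 29 genes (58.6%, 40.7 to 74.5%), at 57.6 per Mb. Both subunits of the GM-CSF receptor were among them. Csf2ra had 5 regions with folds of 4.09 to 16.3 in library 1 and 4.24 to 6.47 in library 2, and Csf2rb had 4 with folds of 3.60 to 12.7 in library 1 and 4.08 to 6.47 in library 2. The Csf2rb TSS was 25.7 to 29.2 kb from its regions, and the TSS of Mir7676-2 was nearer to each of them. For TGFβ receptors, Tgfbr1 had 12 regions, the best at folds of 21.0 and 11.5, and Tgfbr2 had 1, 3.13 kb upstream, at 13.9 and 6.19. Notch2 had 4, the best at 15.4 and 11.2.

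Receptors for microbes and uptake had regions for 22 of 34 genes (64.7%, 47.9 to 78.5%), at 64.0 per Mb, led by Fpr1, Fpr2 (15.1 and 10.9), Fcgr2b (16.0 and 9.26) and Tlr4, the lipopolysaccharide receptor gene (12.5 and 13.4). Cytokines, chemokines and their receptors had them for 23 of 32 (71.9%, 54.6 to 84.4%), at 76.8 per Mb. Cxcl2, a neutrophil chemoattractant gene, was first (chr5:90896341-90900026, 5.7 kb upstream, 18.7 and 15.7), and Ccr1 and Il1b were also among the best-ranked. Lysosomal and protease genes had them for 13 of 35 (37.1%, 23.2 to 53.7%), but with little eligible sequence this came to 76.3 per Mb. Ctsd, a cathepsin gene, had 8 and Psap, which encodes the saposin precursor, had 6. Apoptosis and survival genes had them for 7 of 33 (21.2%, 10.7 to 37.8%), at 23.7 per Mb, among them Mcl1 with 5, the best at folds of 10.1 and 10.4.

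For each list of other cells the Wilson interval included the share of all genes. Other macrophages and monocytes had 4 of 26 (15.4%, 6.15 to 33.5%), at 6.79 per Mb, neutrophils and eosinophils 2 of 20 (2.79 to 30.1%), at 13.4 per Mb, lymphocytes 1 of 23 (4.35%), at 6.94 per Mb, lung epithelium and endothelium 3 of 26 (11.5%), at 15.2 per Mb, and neurons 0 of 22 (upper Wilson limit 14.9%). Most of their regions belonged to 3 genes. Vwf had 9 of the 13 regions of the epithelial and endothelial list, and lies next to Cd9 on chromosome 6. Ccr3, an eosinophil receptor gene, had 5, with folds of 3.12 to 11.6 in library 1 and 3.96 to 5.91 in library 2. Klrb1c, a natural killer cell gene, had all 5 of the lymphocyte list, with folds of 9.77 to 16.6 in library 1 and 4.79 to 10.1 in library 2.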

How the data were processed

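The 2 PPARγ libraries were analysed; the 2 input libraries served the authors as controls of the peak calls and were left out here. Reads were demultiplexed by the authors (bcl2fastq 2.20.0.422 and CASAVA in the submitters' notes), trimmed with cutadapt and aligned to mm10 with Bowtie2 and SAMtools. MACS3 then called peaks in the libraries singly, each with the matching input as control and a q of at most 0.05. The authors' deposited lists give peak positions, the fold enrichment over input as a linear ratio, the −log10 p-value and q-value, and a score of 10 times the −log10 q-value. Folds were used to rank regions and to apply a threshold; they take few distinct values at low enrichment. Peaks were merged on 1 bp of overlap. Where several peaks of a library fell in a region, its highest fold was used. Distances and classes came from curated RefSeq transcripts of GRCm38.p6, the same chromosomes as mm10, and sequences from the same assembly.

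Fisher's exact and exact McNemar tests (scipy 1.17.1), with Benjamini-Hochberg adjustment, were two-sided and were tested on simulated data. Alternatives were other overlap rules, thresholds, annotations, windows, flanks and each library alone; 2 were added after seeing the data (regions near snRNA genes left out, and both motif windows below 50% soft-masked). The named genes were the 15 best-ranked regions, the 8 genes with most regions, up to 4 best-ranked genes and up to 4 without a region from each of 15 lists, the longest runs, and 28 genes named whatever their values. The longest tied runs are given together. The regions, lists, motifs and rules were chosen with earlier results of these data known. Of the list entries 1 matched no gene. Some genes covered by the rule for named genes are not reported here.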

Additional observations from a re-analysis of the deposited data

How the results depend on the processing

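No paired analysis was possible because the only other samples, the inputs, had no values of their own here. Of 146 results under alternatives, 112 kept their direction and side of the threshold or, for values without a test, stayed within the spread of the single libraries or within 1.5 times. Of 105 further values, the counts of single lists, 86 stayed within 1.5 times. With 1 library in place of both, the number of mid-range regions was 6063 to 17182, their share 20.5 to 21.2%, the density ratio 2.10 to 2.17, the upstream share 68.6 to 70.1%, the genes nearest to them 2109 to 4513 and the list genes 161 to 236. In the same setting the odds ratio of strong binding was 1.29 to 1.39 against distal introns, 1.44 to 1.63 against regions beyond 50 kb and 0.777 to 1.31 against promoters, the ratio of DR1 1.19 to 1.97 and that of PU.1 2.77 to 3.34. Motifs called over flanks numbered 10 to 11, those that differed from distal introns 0 to 4 and from regions beyond 50 kb 0 to 10. The mid-range regions numbered 2210 with a reciprocal overlap of 50%, 2389 with summits within 100 bp and 2271 with peaks of at least 5-fold. With predicted transcripts their share was 17.7%, the upstream share 68.3% and the density ratio 3.21; the ratio was 1.99 with reciprocal overlap, 2.14 with summits within 100 bp and 2.02 at a q of 0.001. Against promoters the odds ratio of strong binding turned to 0.814 at a fold of at least 5 and to 0.945 at a fold of at least 15, and was 1.19 without a call with predicted transcripts. Against distal introns it was 1.304 at a fold of at least 15, without a call, and against regions beyond 50 kb 1.48 there, 1.003 at a fold of at least 5 and 1.44 with summits within 100 bp, all without a call. The odds ratio of sharing against distal introns was 1.03 with summits within 100 bp and 1.07 with predicted transcripts, both without a call. DR1 passed the test with a ratio of 2.09 over right flanks and 1.64 with up to 2 mismatches. Motifs that differed from distal introns numbered 1 with summits within 100 bp and 2 with windows of 200 bp on each side; those that differed from regions beyond 50 kb numbered 0 with summits within 100 bp and with predicted transcripts. The cause of these changes was not tested. No read counts were at hand, so depth could not be weighed.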
